A study of Mus musculus with 48 samples.

Results

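Per1, Per2, Per3, Cry1 and Cry2 encode the Period and cryptochrome proteins, the repressors at the centre of the mammalian circadian clock. They were taken by name, as 5 of the 25229 gene symbols counted in 48 libraries of mouse RNA, and all 5 passed the filter on low counts in both tissues. A library held between 17 reads (Cry1 in the shallowest nodose library) and 1989 reads (arcuate Cry2) of any of them. The study sequenced micropunches of the arcuate nucleus, a hypothalamic region that governs feeding, and left nodose ganglia, where the cell bodies of vagal sensory neurons lie. All mice were male C57Bl/6J animals of 10 to 12 weeks with floxed Rev-erba and Rev-erbb alleles (the genes Nr1d1 and Nr1d2), so the controls carried these alleles too. At 6 to 10 weeks they had received a tail-vein injection of AAV8-TBG-EGFP (Control) or AAV8-TBG-Cre (HepDKO), and tissue was taken 2 to 4 weeks later. TBG is a hepatocyte promoter, so the deletion was aimed at liver cells and not at the tissues sequenced. Liver RNA was not analysed here. Mice were kept on chow at 27 °C with 12 h of light and 12 h of dark, and tissue was collected 4, 10, 16 or 22 h after the lights came on (zeitgeber time, ZT), which gave 16 groups of 3 libraries. A nodose library pooled the left ganglia of 4 mice and an arcuate library the punches of 3 mice (3 to 4 in another description by the submitters). A pool hides differences between mice, and p-values measure the spread between pools. The study asks whether the hepatocyte clock sends time-of-day signals through vagal afferents to feeding centres. The genotype comparison below covers the Period and cryptochrome mRNAs in tissue dissected as nodose ganglion and arcuate nucleus. Neuronal markers were low in the nodose libraries, so it does not address vagal neurons.

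In the core clock, CLOCK or its relative NPAS2 pairs with BMAL1 (gene Arntl) and activates genes that carry an E-box, the Period and cryptochrome genes among them. PER and CRY proteins build up, return to the nucleus and repress that activator, and their decay opens the next cycle. REV-ERB receptors repress Arntl and also act on Cry1, which tends to place the Cry1 mRNA later than the others. D-box factors (DBP, TEF, HLF, and the repressor NFIL3) add a further input to Period genes, and Per1 also responds quickly to glucocorticoid and CREB signals. PER1 and PER2 carry the repressor complex, PER3 is largely dispensable for the core loop, and CRY1 and CRY2 are the strongest direct repressors.

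The promoters are shown because the order of the rhythms reported here can be set beside the elements that each start site carries. RefSeq (GRCm38.p6) windows were at hand for 4 of the 5 genes, and the 250 bases before each start are printed 5′ to 3′ on the gene's own strand. Capitals mark matches on either strand, of which none overlapped another. They cover the E-box, spelled CACGTG, and a weaker form of it spelled CACGTT. The weaker form appears as AACGTG where it lies on the opposite strand. They also cover the D-box in the spelling TTATGTAA or in the spelling TTATGCAA, and the cyclic AMP response element (CRE), whose full palindrome is TGACGTCA. The Per1 window is chr11:69098699-69098948 on the plus strand, which lies inside the annotated gene at an internal start. The windows of Per3 (chr4:151044666-151044915), Cry1 (chr10:85185055-85185304) and Cry2 (chr2:92434070-92434319) are on the minus strand.
Per1: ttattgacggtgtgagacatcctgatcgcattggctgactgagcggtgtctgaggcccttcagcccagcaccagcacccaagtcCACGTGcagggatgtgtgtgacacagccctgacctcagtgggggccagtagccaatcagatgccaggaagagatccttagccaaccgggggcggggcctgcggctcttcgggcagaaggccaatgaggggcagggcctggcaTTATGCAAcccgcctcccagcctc
Per3: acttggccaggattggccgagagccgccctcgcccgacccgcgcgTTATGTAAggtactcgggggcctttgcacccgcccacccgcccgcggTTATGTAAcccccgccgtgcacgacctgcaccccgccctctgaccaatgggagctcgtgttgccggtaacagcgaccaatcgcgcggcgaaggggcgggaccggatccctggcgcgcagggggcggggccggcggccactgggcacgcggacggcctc
Cry1: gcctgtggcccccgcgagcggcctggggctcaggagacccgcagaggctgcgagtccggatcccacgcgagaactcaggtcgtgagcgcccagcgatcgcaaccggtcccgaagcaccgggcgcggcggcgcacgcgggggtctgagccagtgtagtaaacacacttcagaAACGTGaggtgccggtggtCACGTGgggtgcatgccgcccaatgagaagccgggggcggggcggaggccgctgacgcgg
Cry2: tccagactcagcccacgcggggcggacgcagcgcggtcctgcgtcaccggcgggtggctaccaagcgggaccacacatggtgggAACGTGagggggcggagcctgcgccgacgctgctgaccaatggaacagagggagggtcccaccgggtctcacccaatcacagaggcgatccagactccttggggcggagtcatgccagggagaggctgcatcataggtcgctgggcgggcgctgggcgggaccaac
Per1 had an E-box whose first base lay at position -166 from the start and a D-box at -24. A Per1 window at another start, chr11:69099902-69100151, held no E-box of either form, D-box or full CRE. Per3 had no E-box in its window and carried the D-box TTATGTAA at -205 and again at -158. Cry1 had an E-box at -60 and the weaker form at -79, and no D-box. Of the motifs in capitals Cry2 carried the weaker E-box form, at -166. None held the full CRE. Shorter letter strings were searched too and are not in capitals: a short CRE form spelled TGACG, and the core of the ROR and REV-ERB element, spelled AGGTCA, each on either strand. The short CRE form lay at -246 in the printed Per1 window, at -132 in the other Per1 window, at -8 in Cry1 and at -209 in Cry2, and the core at -137 in the printed Per1 window alone. Among all 32851 RefSeq windows of this length, 6.02% held the E-box, 3.85% the weaker form, 1.5% a D-box, 1.55% the CRE, 17.8% the short CRE form and 14% the core. These are letter matches and no evidence of binding.

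Totals ran from 15483922 to 20399718 counts in arcuate libraries (median 17324244) and from 1813994 to 10422914 in nodose libraries (median 6641665). Levels are CPM, counts scaled to library size, scaled within each tissue for composition with TMM factors. The summed level of 5 pan-neuronal markers was 2171 to 2636 CPM in arcuate libraries but 6.96 to 53.99 in the libraries labelled nodose. Of 8 vagal sensory markers none was at 0 in every nodose library, and their sum was 0.491 to 5.57 CPM. The same libraries held 11282 to 30558 CPM of 5 Schwann cell markers, 3454 to 65313 of 5 skeletal muscle markers and 285 to 3119 of 5 adipocyte markers. The nodose values below therefore describe tissue dissected as nodose ganglion in which defining neuronal markers were low, not vagal neurons. The label male did not match Xist in 2 libraries (arcuate HepDKO ZT10 replicate 3 and nodose HepDKO ZT10 replicate 2, each over 100 Xist counts), and leaving both out changed no call of the 5 genes. For Nr1d1 and Nr1d2 HepDKO minus Control was 0.06 and -0.07 log2 in arcuate and 0.06 and 0.07 in nodose, and neither passed the test, so these libraries hold no check of the deletion in liver.

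In the nodose libraries 4 of the 5 mRNAs cycled over the day, with Per1 highest before the end of the light phase, then Per3, Per2 and, in the dark, Cry1. Per2 and Per3 swung most widely: the fitted peak stood 6.39-fold over the trough for Per2 and 4.87-fold for Per3, while the highest over the lowest mean of a time was larger for Per3, and the 95% intervals of their amplitudes overlapped (1.03 to 1.65 and 0.93 to 1.35). Cry2 did not pass the test. The test asked of every gene whether its 4 time points carry a 24-h component, with 1 mean for each genotype and time, and the amplitude is the distance from mean to peak on the log2 scale. Genes past an adjusted p of 0.05 made up 1.33% of the 14867 tested, against 4 of the 5 here. The median amplitude was 0.12 over all genes and 0.68 over the 5. In bulk RNA a lower level can mean fewer cells of a type or less RNA per cell, and these cannot be told apart.

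**Figure D1:**
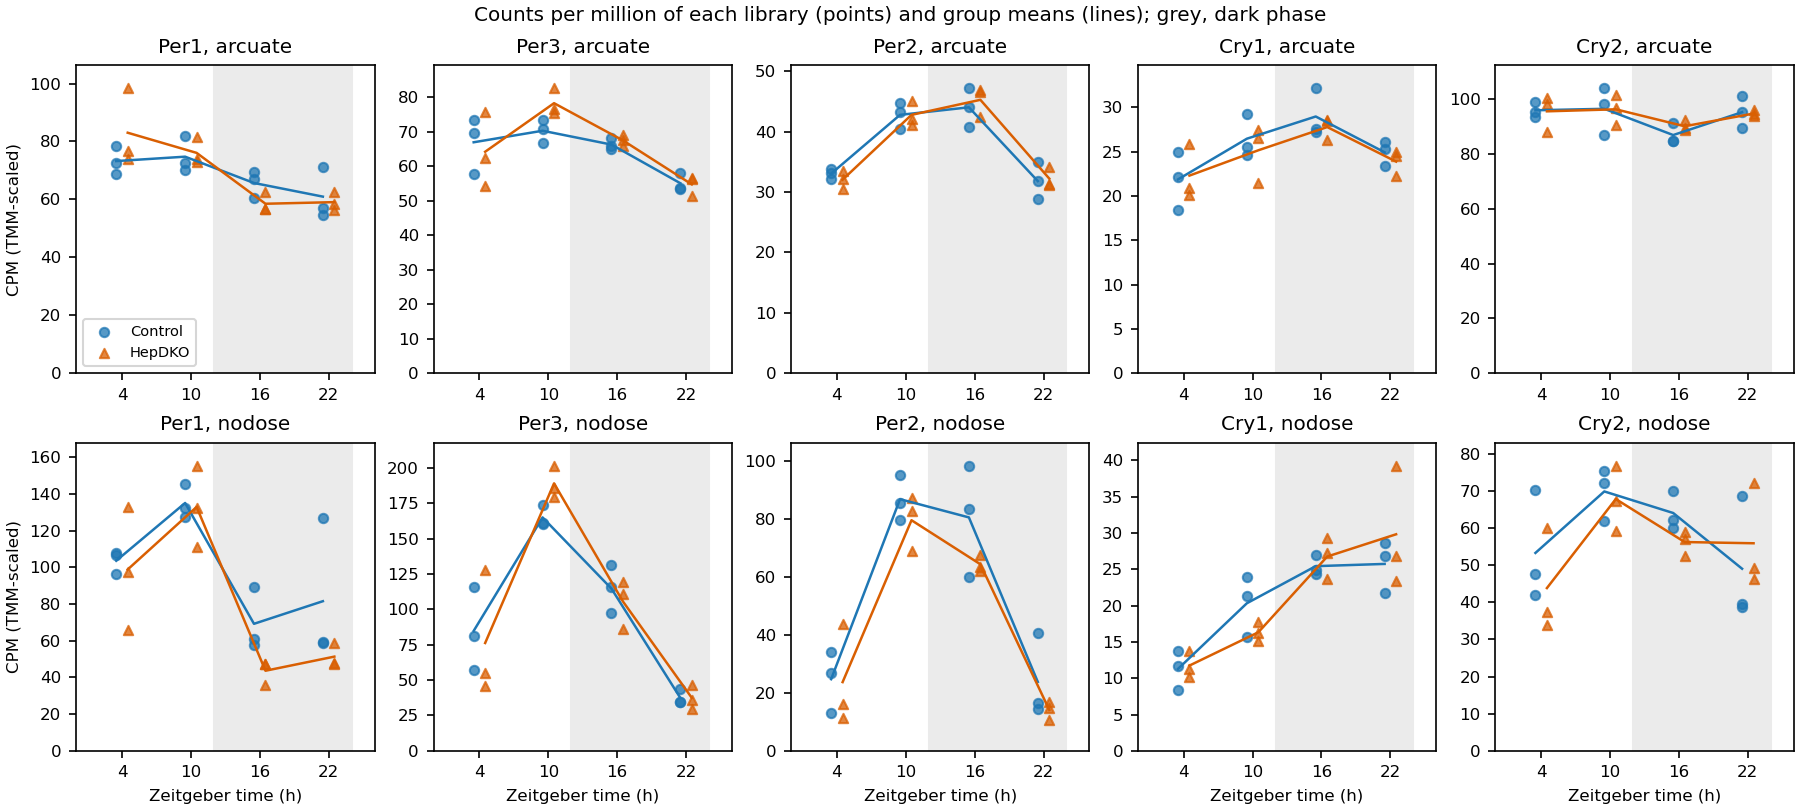
Level of each gene in every library, in TMM-scaled CPM, against zeitgeber time, in arcuate (top) and nodose (bottom) libraries. Points are single libraries (circles Control, triangles HepDKO), lines join group means of 3 libraries, grey is the dark phase and each panel has its own vertical scale from 0. Period genes and Cry1 swing over more of their panel in nodose than in arcuate, and Cry2 in arcuate stays between 84.6 and 104 CPM.

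Per1, the Period gene with the fastest response to stimuli, was highest at ZT10. In Control nodose libraries Per1 stood at 96.2, 107 and 108 CPM at ZT4, 145, 128 and 133 at ZT10, 57.6, 89.1 and 61.03 at ZT16, and 127, 58.7 and 59.3 at ZT22. In HepDKO nodose libraries it stood at 66.02, 97.5 and 133 CPM at ZT4, 155, 111 and 132 at ZT10, 47.2, 47.6 and 36.2 at ZT16, and 47.2, 47.98 and 58.9 at ZT22. All 6 libraries of ZT10 lay above all 6 of ZT16, while ZT22 overlapped with ZT10 through a single library, Control replicate 1. Across both genotypes Per1 averaged 134 ± 15.2 CPM at ZT10 and 56.5 ± 18.3 CPM at ZT16 (mean ± SD, n = 6 libraries each), a ratio of 2.37. The Per1 amplitude over both genotypes was 0.68 (SE 0.0915) with a peak at ZT7.33 (SE 0.512 h), and edgeR's quasi-likelihood test gave a Benjamini-Hochberg adjusted p of 0.000906. Taken by genotype, Per1 had an amplitude of 0.46 in Control (edgeR's quasi-likelihood test, Benjamini-Hochberg adjusted p = 0.332) and 0.90 in HepDKO (adjusted p = 0.00660). Control ZT22 replicate 1, at 127 CPM against 58.7 and 59.3 in the other pools of its group, decided the Control value: without it the amplitude was 0.66 and the adjusted p 0.0238. In the same library the glucocorticoid-induced genes Fkbp5 (324 CPM against 46.96 and 104), Tsc22d3 (642 against 212 and 283) and Sgk1 (269.5 against 149 and 155) were also high, all 7 genes of that list were highest there of all ZT22 libraries, and their part in the Per1 value was not tested. How many of all genes were highest in this library was not counted, so the count of 7 has no background beside it.

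Per3, whose window carries the D-box pair, had the smallest adjusted p of the 5 genes in nodose. In Control nodose libraries Per3 stood at 80.98, 57.4 and 116 CPM at ZT4, 160.0, 161 and 174 at ZT10, 131, 116 and 97.1 at ZT16, and 34.2, 43.8 and 34.2 at ZT22. In HepDKO nodose libraries it stood at 45.7, 55.2 and 128 CPM at ZT4, 202, 179.6 and 186 at ZT10, 111, 119.6 and 86.2 at ZT16, and 36.1, 46.6 and 29.6 at ZT22. Every ZT10 library lay above every library of the other times, and the ZT22 libraries were the lowest except that ZT4 reached down to their range in 1 HepDKO pool. Across both genotypes Per3 averaged 177 ± 15.8 CPM at ZT10 and 37.4 ± 6.45 CPM at ZT22 (mean ± SD, n = 6 libraries each), a ratio of 4.73. The Per3 amplitude over both genotypes was 1.14 (SE 0.102) with a peak at ZT10.8 (SE 0.337 h), and edgeR's quasi-likelihood test gave a Benjamini-Hochberg adjusted p of 9.59e-06. Taken by genotype, Per3 had an amplitude of 1.09 in Control (edgeR's quasi-likelihood test, Benjamini-Hochberg adjusted p = 0.00379) and 1.19 in HepDKO (adjusted p = 0.00152).

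Per2, a core repressor whose loss disturbs behavioural rhythms, was high from late light into early dark and low at the other times. In Control nodose libraries Per2 stood at 26.99, 12.9 and 34.2 CPM at ZT4, 95.2, 79.6 and 85.5 at ZT10, 83.3, 98.3 and 59.9 at ZT16, and 40.5, 16.3 and 14.5 at ZT22. In HepDKO nodose libraries it stood at 11.2, 16.05 and 43.8 CPM at ZT4, 87.04, 68.8 and 82.7 at ZT10, 63.4, 67.4 and 62.1 at ZT16, and 14.7, 10.7 and 16.95 at ZT22. The 12 libraries of ZT10 and ZT16 all lay above the 12 of ZT4 and ZT22, in both genotypes. Across both genotypes Per2 averaged 83.1 ± 8.80 CPM at ZT10 and 18.9 ± 10.8 CPM at ZT22 (mean ± SD, n = 6 libraries each), a ratio of 4.39. The Per2 amplitude over both genotypes was 1.34 (SE 0.148) with a peak at ZT12.4 (SE 0.424 h), and edgeR's quasi-likelihood test gave a Benjamini-Hochberg adjusted p of 0.000222. Taken by genotype, Per2 had an amplitude of 1.26 in Control (edgeR's quasi-likelihood test, Benjamini-Hochberg adjusted p = 0.0286) and 1.44 in HepDKO (adjusted p = 0.0113). The Control call was lost in 9 of the 12 fits that left out 1 Control library, with an adjusted p of up to 0.0859 (without ZT16 replicate 1). The HepDKO call was lost without ZT22 replicate 2 (adjusted p = 0.0797) or replicate 3 (0.0501).

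Cry1, the strongest repressor of the loop, ran later than the Period genes. In Control nodose libraries Cry1 stood at 8.34, 11.7 and 13.8 CPM at ZT4, 21.3, 15.6 and 23.98 at ZT10, 26.99, 24.3 and 24.9 at ZT16, and 21.8, 28.6 and 26.8 at ZT22. In HepDKO nodose libraries it stood at 13.8, 11.2 and 10.2 CPM at ZT4, 17.7, 15.1 and 16.2 at ZT10, 27.3, 23.7 and 29.3 at ZT16, and 23.4, 26.8 and 39.3 at ZT22. Cry1 was lowest at ZT4, where no library reached the level of any library of the other times, and highest in the dark at ZT16 and ZT22. Across both genotypes Cry1 averaged 27.8 ± 6.16 CPM at ZT22 and 11.5 ± 2.11 CPM at ZT4 (mean ± SD, n = 6 libraries each), a ratio of 2.41. The Cry1 amplitude over both genotypes was 0.65 (SE 0.0729) with a peak at ZT17.8 (SE 0.413 h), and edgeR's quasi-likelihood test gave a Benjamini-Hochberg adjusted p of 7.23e-05. Taken by genotype, Cry1 had an amplitude of 0.59 in Control (edgeR's quasi-likelihood test, Benjamini-Hochberg adjusted p = 0.0344) and 0.73 in HepDKO (adjusted p = 0.00276). The Control call was lost in 6 of the 12 fits that left out 1 Control library, with the highest adjusted p, 0.120, without ZT4 replicate 1, the shallowest library of all.

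Cry2, the paralogue with less of a rhythm in most tissues, had 70.2, 42.1 and 47.7 CPM at ZT4, 72.2, 61.98 and 75.4 at ZT10, 59.9, 62.2 and 70.1 at ZT16, and 68.8, 38.8 and 39.6 at ZT22 in Control nodose libraries. In HepDKO nodose libraries Cry2 had 37.4, 34.00 and 60.2 CPM at ZT4, 76.8, 59.3 and 67.3 at ZT10, 57.1, 59.1 and 52.6 at ZT16, and 49.1, 46.4 and 72.3 at ZT22. The time points overlapped, and the range within ZT4 and within ZT22 was wider than the difference between the means of any pair of times. Its amplitude of 0.25 (SE 0.0820) came with an unadjusted p of 0.0200 and a Benjamini-Hochberg adjusted p of 0.281 in edgeR's quasi-likelihood test. Reads of Cry2 cannot be separated from those of D930015M05Rik on the opposite strand, because the strand setting of the counting is not given in the sources used here.

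The ZT4 libraries numbered 3 stood apart in both genotypes, an observation made after their values were seen. Per3 was 116 and 128 CPM there, against 45.7 to 80.98 in the other ZT4 pools. Per2 was 34.2 and 43.8 CPM, against 11.2 to 26.99. Other clock genes moved with them: the output factor Dbp was 45.6 and 43.99 CPM in the libraries numbered 3 against 9.82 to 19.2 in the other pools, and Arntl was 19.8 and 16.3 against 30.7 to 39.7. At ZT16 the libraries numbered 3 had the lowest Dbp and the highest Arntl of their groups. With only the nodose libraries numbered 1 and 2, an alternative added after this was seen, the same 4 genes passed the test (Per1 0.60, Per3 1.18, Per2 1.55 and Cry1 0.64), and 549 genes in all passed in place of 198. Within HepDKO the calls of Per1 (0.83, edgeR's quasi-likelihood test, Benjamini-Hochberg adjusted p = 0.350) and Cry1 (0.60, adjusted p = 0.114) were lost. What sets these libraries apart was not tested.

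Markers of tissue around the ganglion were read beside these rhythms, as whole lists. The 5 skeletal muscle markers summed to 6436 to 36744 CPM at ZT4, 25874 to 65313 at ZT10, 3454 to 43622 at ZT16 and 12612 to 50022 at ZT22. The 5 adipocyte markers summed to 285 to 1785 CPM at ZT4, 1117 to 3119 at ZT10, 1157 to 2325 at ZT16 and 376 to 1737 at ZT22. Median adipocyte sums were 1871 CPM at ZT10 and 1821 at ZT16, the times of high Per2, against 936 at ZT4 and 1191 at ZT22. All 5 adipocyte markers had fitted peaks between ZT12.7 and ZT14.7, beside the Per2 peak at ZT12.4, with amplitudes of 0.27 to 0.67. The lowest p was that of Fabp4 (0.0170 unadjusted, Benjamini-Hochberg adjusted p = 0.262 in edgeR's quasi-likelihood test). The ranges of both sums overlapped between all times, and none of the 5 muscle or 5 adipocyte markers passed the rhythm test. A muscle and an adipocyte score, the mean log2 CPM of each list and not its sum, were then used as covariates. With them all 4 rhythms averaged over genotypes kept their calls. Among the calls within a genotype Per2 in Control was lost (1.16, edgeR's quasi-likelihood test, Benjamini-Hochberg adjusted p = 0.0787).

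In the arcuate nucleus the same 4 mRNAs cycled in the same order and with smaller swings. Per2 had the largest fitted amplitude here, with a peak 1.54-fold over its trough, against 1.38-fold for Per1, 1.35-fold for Per3 and 1.29-fold for Cry1. Of all 16102 genes tested in arcuate, 3.86% passed, against 4 of the 5. The median amplitude was 0.07 over all genes and 0.22 over the 5. Libraries of the highest time all lay above those of the lowest for 3 of the 5 genes (Per2, Per3 and Cry1) in arcuate, where 6.16% of all genes did so. In nodose they did for 4 of 5, against 4.3%.

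Markers of neighbouring nuclei were read beside the arcuate rhythms. The 7 markers of the suprachiasmatic nucleus, the master clock of the hypothalamus, summed to 50.5 to 554 CPM over the 24 arcuate libraries. Avp, a gene also made in other hypothalamic nuclei, ranged alone over 5.11 to 465 CPM. By time the sum was 53.4 to 399 (ZT4), 143 to 279 (ZT10), 92.3 to 554 (ZT16) and 50.5 to 314 CPM (ZT22). The 2 ventromedial markers summed to 22.4 to 94.2 CPM, and the 7 markers of arcuate neurons to 230.4 to 369 CPM. The suprachiasmatic sum thus varied more between libraries than the sum for arcuate neurons. None of these 7 suprachiasmatic or 2 ventromedial markers passed the rhythm test, and the ranges of both sums overlapped between all times. With the suprachiasmatic and ventromedial scores as covariates, an alternative added after the values were seen, no call of the 5 genes changed, and the averaged amplitudes were 0.23 for Per1, 0.19 for Per3, 0.32 for Per2 and 0.21 for Cry1.

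Per1 was high in the light and low in the dark. In Control arcuate libraries Per1 stood at 72.5, 78.6 and 68.7 CPM at ZT4, 81.8, 72.4 and 70.1 at ZT10, 60.4, 67.1 and 69.5 at ZT16, and 71.2, 54.5 and 57.2 at ZT22. In HepDKO arcuate libraries it stood at 76.5, 74.1 and 98.4 CPM at ZT4, 73.9, 81.5 and 72.9 at ZT10, 56.6, 56.5 and 62.4 at ZT16, and 58.3, 62.6 and 56.3 at ZT22. The ZT10 libraries all lay above those of ZT16, and the other time points overlapped in part. Across both genotypes Per1 averaged 78.1 ± 10.5 CPM at ZT4 and 60.02 ± 6.10 CPM at ZT22 (mean ± SD, n = 6 libraries each), a ratio of 1.30. The Per1 amplitude over both genotypes was 0.23 (SE 0.0355) with a peak at ZT6.99 (SE 0.579 h), and edgeR's quasi-likelihood test gave a Benjamini-Hochberg adjusted p of 0.00107. Taken by genotype, Per1 had an amplitude of 0.17 in Control (edgeR's quasi-likelihood test, Benjamini-Hochberg adjusted p = 0.411) and 0.31 in HepDKO (adjusted p = 0.00728). Both genotypes had their highest and lowest means at light and dark times respectively, and the difference between their rhythms did not pass its own test (given with the genotype results). Control ZT22 replicate 1, the highest of the ZT22 libraries in Per1, stood apart here too: the glucocorticoid-induced genes Sgk1 (142 CPM against 44.9 and 39.7 in its group), Fkbp5 (85.4 against 38.96 and 32.7) and Zbtb16 (73.5 against 25.8 and 15.6) were high in it, and 7 of the 7 genes of that list were highest there of all ZT22 libraries. Without it the Control amplitude of Per1 was 0.22 (edgeR's quasi-likelihood test, Benjamini-Hochberg adjusted p = 0.0912), and the part of these genes in the Per1 values was not tested. The share of all genes highest in that library was not counted here either.

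Per3 followed Per1. In Control arcuate libraries Per3 stood at 69.7, 73.6 and 57.7 CPM at ZT4, 73.4, 70.7 and 66.9 at ZT10, 68.1, 65.04 and 65.8 at ZT16, and 53.8, 58.03 and 53.5 at ZT22. In HepDKO arcuate libraries it stood at 62.5, 54.4 and 75.9 CPM at ZT4, 76.8, 82.7 and 75.5 at ZT10, 67.6, 65.9 and 69.2 at ZT16, and 56.4, 51.3 and 56.6 at ZT22. Per3 was lowest at ZT22, where all libraries lay below all those of ZT10 and of ZT16, and ZT4 spread across most of the range. Across both genotypes Per3 averaged 74.3 ± 5.41 CPM at ZT10 and 54.9 ± 2.50 CPM at ZT22 (mean ± SD, n = 6 libraries each), a ratio of 1.35. The Per3 amplitude over both genotypes was 0.22 (SE 0.0320) with a peak at ZT10.3 (SE 0.558 h), and edgeR's quasi-likelihood test gave a Benjamini-Hochberg adjusted p of 0.000701. Taken by genotype, Per3 had an amplitude of 0.18 in Control (edgeR's quasi-likelihood test, Benjamini-Hochberg adjusted p = 0.239) and 0.26 in HepDKO (adjusted p = 0.0152). The HepDKO call was lost without ZT10 replicate 2 (adjusted p = 0.0785) or ZT22 replicate 2 (0.0953).

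Per2 had the clearest arcuate rhythm. In Control arcuate libraries Per2 stood at 33.7, 32.2 and 33.2 CPM at ZT4, 43.2, 44.8 and 40.4 at ZT10, 40.7, 44.2 and 47.2 at ZT16, and 34.9, 28.8 and 31.8 at ZT22. In HepDKO arcuate libraries it stood at 30.5, 32.2 and 33.5 CPM at ZT4, 42.1, 45.1 and 41.2 at ZT10, 42.4, 46.5 and 46.9 at ZT16, and 31.4, 34.2 and 31.2 at ZT22. As in nodose, the 12 libraries of ZT10 and ZT16 all lay above the 12 of ZT4 and ZT22. Across both genotypes Per2 averaged 44.7 ± 2.68 CPM at ZT16 and 32.04 ± 2.22 CPM at ZT22 (mean ± SD, n = 6 libraries each), a ratio of 1.39. The Per2 amplitude over both genotypes was 0.31 (SE 0.0269) with a peak at ZT13.2 (SE 0.333 h), and edgeR's quasi-likelihood test gave a Benjamini-Hochberg adjusted p of 3.27e-07. Taken by genotype, Per2 had an amplitude of 0.30 in Control (edgeR's quasi-likelihood test, Benjamini-Hochberg adjusted p = 0.000500) and 0.32 in HepDKO (adjusted p = 0.000164). It was the only one of the 5 genes that passed in both genotypes of the arcuate nucleus, and the Control call was lost with counts thinned to nodose totals (adjusted p = 0.0938, edgeR's quasi-likelihood test, Benjamini-Hochberg).

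Cry1 came last here as well, with the weakest of the 4 rhythms. In Control arcuate libraries Cry1 stood at 22.2, 18.4 and 25.01 CPM at ZT4, 25.5, 29.3 and 24.6 at ZT10, 27.2, 32.2 and 27.5 at ZT16, and 26.1, 25.3 and 23.3 at ZT22. In HepDKO arcuate libraries it stood at 20.9, 25.8 and 20.2 CPM at ZT4, 27.4, 26.6 and 21.5 at ZT10, 28.5, 28.5 and 26.3 at ZT16, and 24.9, 24.5 and 22.2 at ZT22. The ZT16 libraries all lay above those of ZT4, and above those of ZT22. ZT10 overlapped with every other time, and ZT22 overlapped with ZT4. Across both genotypes Cry1 averaged 28.4 ± 2.04 CPM at ZT16 and 22.1 ± 2.88 CPM at ZT4 (mean ± SD, n = 6 libraries each), a ratio of 1.28. The Cry1 amplitude over both genotypes was 0.19 (SE 0.0398) with a peak at ZT15.2 (SE 0.824 h), and edgeR's quasi-likelihood test gave a Benjamini-Hochberg adjusted p of 0.0212. Taken by genotype, Cry1 had an amplitude of 0.21 in Control (edgeR's quasi-likelihood test, Benjamini-Hochberg adjusted p = 0.296) and 0.16 in HepDKO (adjusted p = 0.228). The call averaged over genotypes was lost without Control ZT16 replicate 2 (adjusted p = 0.0726), Control ZT4 replicate 2 (0.0611) or HepDKO ZT16 replicate 2 (0.0576).

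Arcuate Cry2 was nearly level. Over 6 libraries each it ran from 87.8 to 100.4 CPM at ZT4 (median 96.8), 87.02 to 104 at ZT10 (median 97.5), 84.6 to 92.3 at ZT16 (median 88.9) and 89.3 to 101.01 at ZT22 (median 94.9). Its amplitude was 0.06 (SE 0.0239), with a 95% interval of 0.01 to 0.11, and it did not pass edgeR's quasi-likelihood test (Benjamini-Hochberg adjusted p = 0.277). All time points overlapped.

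**Figure D2:**
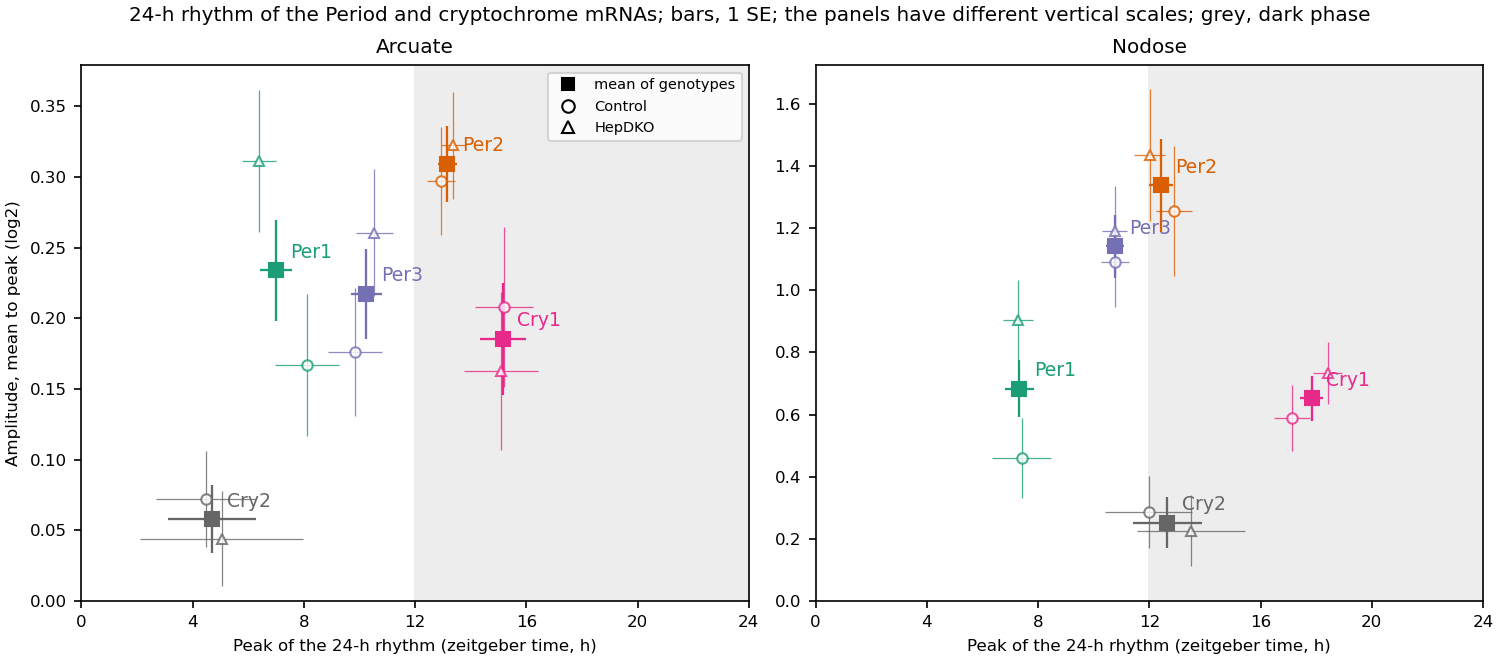
Amplitude of the 24-h rhythm (mean to peak, log2) against its peak time (zeitgeber time, h) for each gene, in arcuate (left) and nodose (right) libraries. Filled squares average the genotypes, open circles are Control, open triangles are HepDKO, bars are 1 SE, grey is the dark phase and the vertical scales differ. From left to right the points run Per1, Per3, Per2 and Cry1 in both tissues, with Per2 at 0.31 in arcuate and 1.34 in nodose. Cry2 did not pass the test in either tissue.

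The fitted peaks came in the order Per1, Per3, Per2, Cry1 in both tissues and in both genotypes. In nodose Per3 followed Per1 by 3.44 h, Per2 followed Per3 by 1.66 h, and Cry1 followed Per2 by 5.42 h. In arcuate these steps were 3.26, 2.91 and 1.99 h. From Per1 to Cry1 the sequence spanned 10.5 h in nodose and 8.16 h in arcuate. With the genotypes averaged, the 95% intervals of neighbouring peaks did not overlap in nodose, where Per3 (10.06 to 11.47 h) and Per2 (11.53 to 13.31 h) came closest, and in arcuate those of Per2 (12.5 to 13.8 h) and Cry1 (13.5 to 16.8 h) did. Within a genotype the order is less sure, since intervals of neighbouring peaks overlapped in both genotypes of each tissue. It also includes peaks of rhythms that did not pass: Per1, Per3 and Cry1 in arcuate Control, Cry1 in arcuate HepDKO and Per1 in nodose Control. In arcuate Control the intervals of Per1 (5.76 to 10.5 h) and Per3 (7.83 to 11.8 h) overlapped, and Per3 followed Per1 by 1.72 h there against 4.14 h in HepDKO. Per2 and Cry1 overlapped in arcuate Control (11.9 to 13.9 h and 13.1 to 17.3 h) and arcuate HepDKO (12.45 to 14.3 h and 12.36 to 17.8 h). In nodose Per3 and Per2 overlapped although both passed. Their intervals were 9.72 to 11.8 h and 11.6 to 14.2 h in Control, and 9.81 to 11.7 h and 10.9 to 13.2 h in HepDKO. The order of the fitted peaks held under all 32 alternatives run in each tissue with the genotypes averaged and all 33 within each genotype, leave-one-out fits included. Times 6 h apart fix a peak only through the fitted 24-h curve, so a sharper or skewed peak would be placed with error. No 12-h component passed for any of the 5 genes, against 0.0124% of all genes in arcuate (2 genes, with 1143 under an unadjusted 0.05) and 0% in nodose (1029 under an unadjusted 0.05) in edgeR's test. DESeq2 called 20 and 7. Nodose Cry1 had the lowest p of the 5 there, 0.00193 unadjusted and 0.654 adjusted in edgeR's quasi-likelihood test.

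The separation of Per1 from Cry1 was also read within libraries, where the ratio of their counts does not depend on scaling. In nodose the Per1 over Cry1 count ratio was 4.78 to 13.1 (median 8.91) at ZT4, 5.53 to 8.79 (median 7.76) at ZT10, 1.23 to 3.66 (median 2.07) at ZT16 and 1.5 to 5.82 (median 2.04) at ZT22, over 6 libraries each. In arcuate it was 2.75 to 4.88 (median 3.47), 2.47 to 3.39 (median 2.96), 1.98 to 2.53 (median 2.15) and 2.16 to 2.72 (median 2.49) at the same times. Light-phase libraries thus had the higher ratio in both tissues, with overlap in nodose through Control ZT22 replicate 1 and in arcuate between ZT10 and the dark times. The Per2 over Cry1 count ratio in nodose was 0.812 to 4.30 (median 1.96), 3.57 to 5.12 (median 4.74), 2.12 to 4.04 (median 2.62) and 0.398 to 1.86 (median 0.556) in the order of the times. In arcuate it kept to 1.25 to 1.75 (median 1.49), 1.53 to 1.92 (median 1.67), 1.37 to 1.78 (median 1.57) and 1.14 to 1.40 (median 1.35). In nodose Cry1 reads outnumbered Per2 reads in 5 of 6 ZT22 libraries and in 1 ZT4 library, and in arcuate Per2 reads outnumbered Cry1 reads in every library.

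The rhythms of Per2, Per3 and Cry1 differed between the tissues, each with the larger amplitude in nodose. An F test on edgeR's separate fits, with each tissue's own spread, called 0.782% of 13937 genes (109 genes; 0.725% of all passed with the larger amplitude in nodose), and 3 of the 5 members. The size of the difference counts amplitude and timing together: it was 1.04 log2 for Per2 (Benjamini-Hochberg adjusted p = 0.00398 in that F test), 0.93 for Per3 (Benjamini-Hochberg adjusted p = 8.83e-05) and 0.53 for Cry1 (Benjamini-Hochberg adjusted p = 0.00172). Amplitudes alone differed, nodose minus arcuate, by 1.03 (SE 0.151) for Per2, 0.92 (SE 0.107) for Per3, 0.47 (SE 0.0830) for Cry1 and 0.45 (SE 0.0981) for Per1. Nodose over arcuate, the ratio of amplitudes was 5.25 for Per3, 4.33 for Per2, 3.52 for Cry1 and 2.92 for Per1. Per1 lay at the threshold, with a difference of 0.45 and a Benjamini-Hochberg adjusted p of 0.0502 in the same F test. It passed in 11 of the 48 fits that left out 1 library, with adjusted p-values from 0.00114 (without nodose Control ZT22 replicate 1) to 0.123. Cry2 did not pass (0.28, Benjamini-Hochberg adjusted p = 0.261).

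Peak times were close between tissues for the Period genes and later in nodose for Cry1. Nodose minus arcuate, the peak differed by 0.337 h for Per1 (95% interval -1.22 to 1.89), 0.512 h for Per3 (-0.804 to 1.83) and -0.742 h for Per2 (-1.83 to 0.347). For Cry1 it differed by 2.69 h (0.822 to 4.55), the only interval of the 4 that left out 0. These intervals are not adjusted for the 4 genes. Tissue, library preparation and depth went together in this design and cannot be told apart.

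Mean levels differed between the tissues for all 5 genes in edgeR's quasi-likelihood test of 1 fit over all 48 libraries, where 92.1% of 17478 genes passed (45.6% higher and 46.6% lower in nodose), so a difference here says little of these genes. Nodose minus arcuate, the log2 level was 0.61 (SE 0.0772) for Per3, 0.48 (SE 0.0725) for Per1 and 0.30 (SE 0.105) for Per2. Both cryptochromes were lower in nodose, with differences of -0.54 (SE 0.0615) for Cry2 and -0.15 (SE 0.0580) for Cry1, and the largest Benjamini-Hochberg adjusted p of the 5 was 0.0130, for Cry1, in edgeR's quasi-likelihood test. The Per2 call was lost when libraries were scaled by their totals alone (0.10, edgeR's quasi-likelihood test, Benjamini-Hochberg adjusted p = 0.328) and with the nodose libraries numbered 1 and 2 only (0.12, adjusted p = 0.140). The Cry1 call was lost when arcuate counts were thinned to nodose totals (-0.12, adjusted p = 0.0581).

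Per kilobase of exon, Cry2 was the most abundant of the 5 mRNAs in arcuate. Exon lengths were taken from GENCODE M21 (GRCm38, mm10), in which Per1 lies at chr11:69095217-69109960 (plus strand), Per2 at chr1:91415982-91459324 (minus strand) and Per3 at chr4:151003652-151044665 (minus strand). Cry1 lies at chr10:85131700-85185064 (minus strand) and Cry2 at chr2:92403646-92434043 (minus strand). In arcuate the levels were 21.6 ± 1.25 CPM per kb for Cry2, 12.3 ± 1.86 for Per1, 10.9 ± 1.44 for Per3, 8.31 ± 1.05 for Cry1 and 6.52 ± 1.06 for Per2 (mean ± SD, n = 24). This order was steep: Cry2 stood above the other genes and Per2 below them in 24 of 24 libraries, Per3 was above Cry1 in 24 of 24, and Per1 was above Per3 in 20 of 24. In nodose they were 16.9 ± 9.23 CPM per kb for Per3, 15.9 ± 6.65 for Per1, 13.2 ± 3.00 for Cry2, 8.52 ± 5.35 for Per2 and 6.91 ± 2.50 for Cry1, again over 24 libraries. There neighbours changed place between libraries: Per1 was above Per3 in 11 of 24 libraries, Per1 above Cry2 in 16, Per3 above Cry2 in 15 and Per2 above Cry1 in 15. Within a tissue these levels compare genes on the length scale of the annotation, which may not be that of the expressed isoforms, and Camta1 overlaps Per3 on the same strand.

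**Figure D3:**
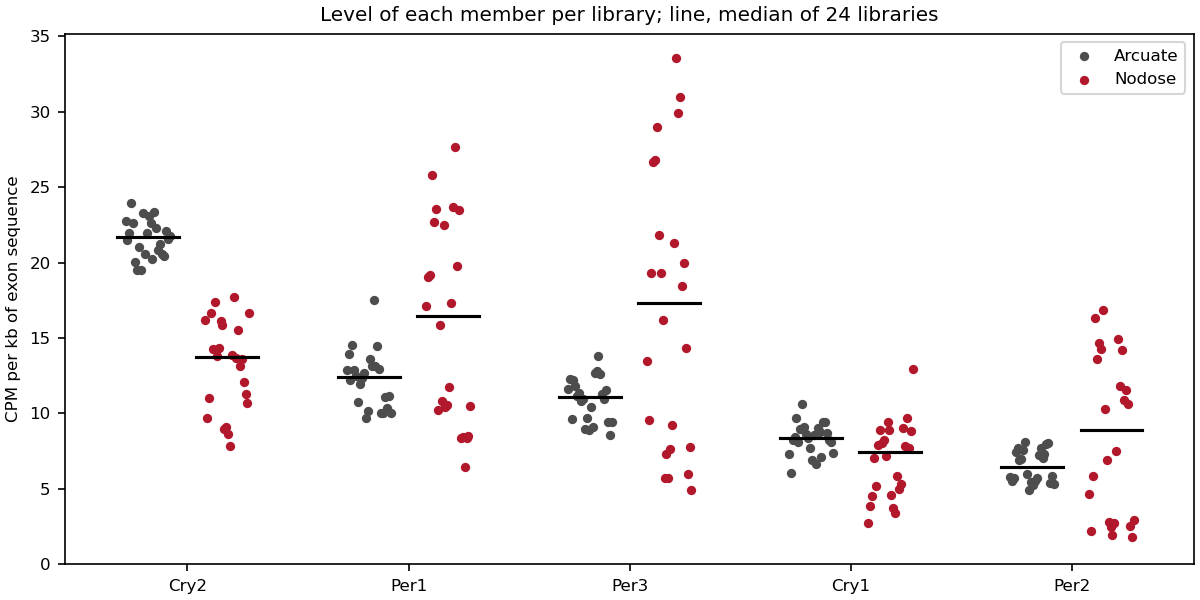
Level of each gene in CPM per kb of exon, each point 1 library, arcuate in grey and nodose in red, with the median of 24 libraries as a line. TMM factors were set within each tissue, so heights compare genes within a tissue and not tissues. In arcuate Cry2 stands above the rest at 21.6 ± 1.25, and in nodose the Period genes spread over a wide range.

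HepDKO and Control did not differ past the threshold for any of the 5 genes, in level or in rhythm, in either tissue. In arcuate the HepDKO minus Control log2 differences over all times were -0.0013 for Per1 (-0.10 to 0.10), 0.03 for Per3 (-0.06 to 0.12), 0.0043 for Per2 (-0.07 to 0.08), -0.04 for Cry1 (-0.16 to 0.08) and 0.01 for Cry2 (-0.06 to 0.08), with 95% intervals in parentheses. These intervals lay within 0.16 log2 of 0, and single times were bounded less tightly: arcuate Per1 was 0.18 (-0.02 to 0.38) at ZT4 and -0.17 (-0.37 to 0.04) at ZT16, with opposite signs, and Per3 was 0.16 (-0.03 to 0.34) at ZT10. All 20 arcuate intervals at single times included 0 with all libraries. The ZT4 value of Per1 rested on HepDKO ZT4 replicate 3, without which it was 0.04 (-0.14 to 0.22), and its interval lay above 0 without Control ZT4 replicate 2 (0.23, 0.0045 to 0.46), HepDKO ZT4 replicate 1 (0.24, 0.02 to 0.47) or HepDKO ZT4 replicate 2 (0.25, 0.04 to 0.47). Arcuate Per3 at ZT4 was -0.06 (-0.25 to 0.12) and -0.20 (-0.36 to -0.04) without the same HepDKO ZT4 replicate 3. No other arcuate interval of the 5 genes left 0 when 1 library of its time was left out. In nodose, with the wider spread of its libraries, the differences over all times were -0.36 for Per1 (-0.63 to -0.09), -0.02 for Per3 (-0.32 to 0.28), -0.32 for Per2 (-0.76 to 0.12), -0.0025 for Cry1 (-0.21 to 0.21) and -0.08 for Cry2 (-0.32 to 0.16). By edgeR's quasi-likelihood test 0% of all genes passed in arcuate (0 genes, with 1387 under an unadjusted 0.05) and 0% in nodose (0 genes, with 497 under an unadjusted 0.05), and DESeq2 called 23 and 3. The test of a difference at any time also called 0 genes, 0 of the 5 members among them (775 and 349 genes at an unadjusted p under 0.05), against 9 and 2 with DESeq2.

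Nodose Per1 had the widest gap between genotypes over all times. At ZT16 the HepDKO pools had 47.2, 47.6 and 36.2 CPM of Per1 and the Control pools 57.6, 89.1 and 61.03. At ZT22 the HepDKO pools had 47.2, 47.98 and 58.9 CPM and the Control pools 127, 58.7 and 59.3. The groups did not overlap at ZT16 and overlapped by 1 library at ZT22. The share of all genes whose genotypes separate in this way was not counted, so the separation alone says little of Per1. HepDKO minus Control was -0.67 at ZT16 (95% interval -1.21 to -0.13) and -0.68 at ZT22 (-1.22 to -0.13), against -0.07 at ZT4 and -0.02 at ZT10. The ZT22 value rested on Control ZT22 replicate 1, without which it was -0.19 (-0.66 to 0.28), and its interval also included 0 without HepDKO ZT22 replicate 1 (-0.63, -1.27 to 0.01). At ZT16 the interval included 0 without Control ZT16 replicate 2 (-0.47, -1.07 to 0.13) or HepDKO ZT16 replicate 3 (-0.57, -1.19 to 0.05). Control ZT16 replicate 2 was also high in glucocorticoid-induced genes, with Tsc22d3 at 557 CPM against 306 and 322 in its group and Fkbp5 at 248 against 132 and 144. Of that list 5 of 7 genes were highest there of all ZT16 libraries, Mt1 and Mt2 being the exceptions, and the part of the list in the ZT16 value of Per1 was not tested. The share of all genes highest in that library was not counted. For Per2 the ZT22 difference was -0.78 (-1.71 to 0.14) with all libraries and -0.12 (-1.05 to 0.82) without Control ZT22 replicate 1. Other nodose intervals that included 0 with all libraries left it without HepDKO ZT4 replicate 3 at ZT4 (Per3 -0.75, -1.22 to -0.27, Per2 -0.85, -1.69 to -0.01, and Cry2 -0.55, -1.06 to -0.05), without Control ZT10 replicate 2 at ZT10 (Cry1 -0.49, -0.92 to -0.05), and at ZT22 without Control ZT22 replicate 1 (Cry2 0.52, 0.05 to 1.00) or replicate 3 (Per2 -1.03, -2.02 to -0.03). Over all times the Per1 difference was -0.36 (SE 0.129), with an unadjusted p of 0.0110 and an adjusted p of 1.00 in edgeR's quasi-likelihood test. Without Control ZT22 replicate 1 it was -0.25, and the Per2 difference moved from -0.32 to -0.16. The glucocorticoid-induced genes lay on the same side: 7 of 7 had a lower fitted level in HepDKO in nodose (median -0.36, from -0.16 for Zbtb16 to -0.89 for Mt2), against 46.7% of all genes (median 0.01). In arcuate 7 of 7 were lower (median -0.25), against 52.2% of all genes, while Per1 differed by -0.0013 there. The lowest adjusted p of the 7 in either tissue was 0.444 in edgeR's quasi-likelihood test (Errfi1, arcuate). Without Control ZT22 replicate 1 of the tissue the medians were -0.13 in nodose and -0.14 in arcuate, with all 7 still on the lower side in each. Their part in the Per1 difference was not tested. In edgeR's quasi-likelihood test the difference between the genotypes' rhythms was 0.44 (SE 0.183) for nodose Per1 (unadjusted p = 0.0751, Benjamini-Hochberg adjusted p = 0.982) and 0.18 (SE 0.0708) for arcuate Per1 (unadjusted p = 0.0619, Benjamini-Hochberg adjusted p = 0.999). It passed for 0 of the 5 members and 0 genes in either tissue (0% of all, with 382 arcuate and 421 nodose genes at an unadjusted p under 0.05, and 1 arcuate gene by DESeq2). So a call in 1 genotype and not in the other, as for Per1 in both tissues, does not show a difference between them.

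Within genotypes 3 of the 5 genes passed the rhythm test in nodose Control (0.242% of all genes) and 4 in nodose HepDKO (0.121%). In arcuate 1 passed in Control (0.261%) and 3 in HepDKO (0.379%). These counts moved with the processing: 1 of 5 passed in nodose Control in a fit of that genotype alone (Per2 and Cry1 were lost), 2 of 5 in nodose HepDKO with the libraries numbered 1 and 2 only (Per1 and Cry1 were lost), 2 of 5 in arcuate HepDKO in a fit of that genotype alone (Per3 was lost), and 0 of 5 in arcuate Control with counts thinned to nodose totals (Per2 was lost). Leaving out 1 library gave 1 to 4 of the 5 in nodose Control, 3 to 4 in nodose HepDKO, 1 to 2 in arcuate Control and 2 to 3 in arcuate HepDKO. Peak times of HepDKO minus Control differed by -0.122 h for Per1, -0.0117 h for Per3, -0.879 h for Per2 and 1.29 h for Cry1 in nodose. In arcuate they differed by -1.72, 0.696, 0.444 and -0.117 h. All 8 of these 95% intervals held 0, the widest for arcuate Cry1 (-3.58 to 3.35 h), so shifts of an hour or more would not have been seen for every gene. The genotype effect of Per1 differed between tissues by -0.36 (SE 0.139) (nodose minus arcuate), with an unadjusted p of 0.0152 and a Benjamini-Hochberg adjusted p of 0.999 in the F test on edgeR's fits, where 0 of the 5 and 0% of all genes passed (504 at an unadjusted p under 0.05).

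**Figure D4:**
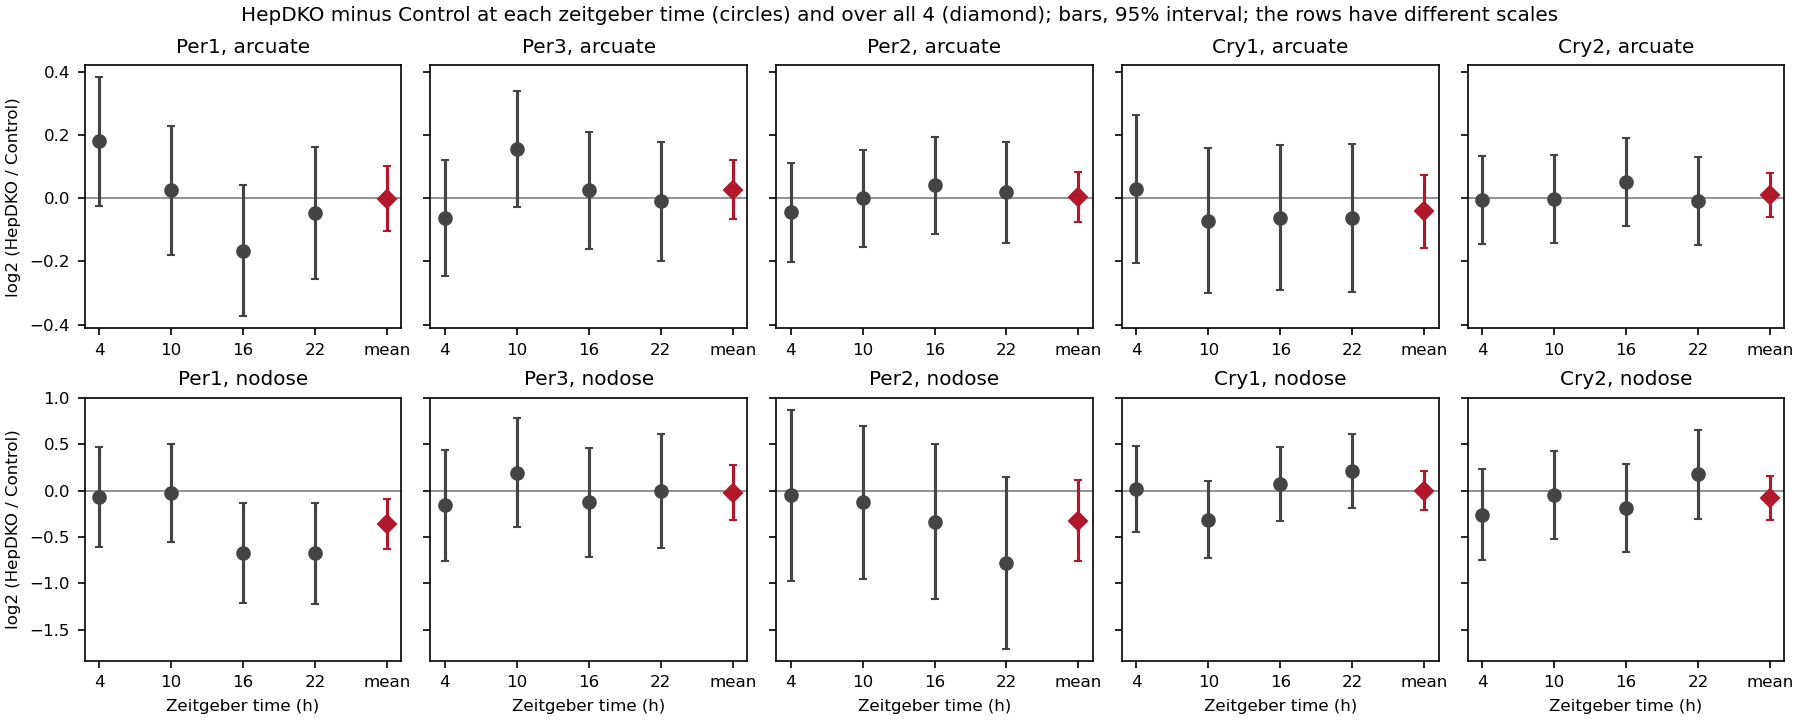
Log2 of HepDKO over Control for each gene at each zeitgeber time (circles) and over all 4 times (diamond), in arcuate (top) and nodose (bottom), with bars for 95% intervals and a grey line at 0. The vertical scales of the tissues differ. Nodose Per1 at ZT16 and ZT22 lies below 0 with its interval when all libraries are used, and neither that nor any other gene passed the test across all genes.

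Around the 5 genes, the rest of the loop was read from lists chosen with earlier results of these data known. For each list the gene with the lowest p is named with its amplitude, peak and Benjamini-Hochberg adjusted p from edgeR's quasi-likelihood test of the 24-h rhythm. Genes named beyond it were picked because they passed, except that the glucocorticoid-induced list is named in full for nodose. Among the activators, 2 of 4 passed in nodose, Arntl and Npas2, led by Arntl (1.79, peak ZT22.7, adjusted p = 9.05e-09). In arcuate 1 of 4 did, Arntl (0.24, peak ZT22.8, adjusted p = 0.000289). The mRNA of BMAL1 thus peaked on the far side of the day from Per3 in both tissues. Of the REV-ERB and ROR receptors, which repress and activate Arntl, both REV-ERBs passed, 2 of 4 in nodose and 2 of 5 in arcuate, led by Nr1d1 (1.74, peak ZT6.72, adjusted p = 9.05e-09) in nodose and Nr1d1 (0.41, peak ZT6.96, adjusted p = 3.72e-08) in arcuate. Nr1d1 peaked within 1 SE of the Per1 peak in arcuate. Of the D-box factors 4 of 4 passed in nodose, led by Dbp (1.94, peak ZT9.00, adjusted p = 9.81e-06), with the repressor Nfil3 on the opposite side of the day at ZT19.8. In arcuate 2 of 4 passed (Dbp and Tef), led by Dbp (0.63, peak ZT8.49, adjusted p = 3.72e-08). Of the E-box repressors 3 of 3 passed in nodose, led by Bhlhe40 (0.49, peak ZT10.00, adjusted p = 0.000906), and 2 of 3 in arcuate, led by Ciart (0.41, peak ZT7.77, adjusted p = 0.000801). The median amplitudes of these 4 lists were 1.00, 0.75, 0.87 and 0.57 in nodose and 0.16, 0.20, 0.14 and 0.14 in arcuate.

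Genes whose products act on or bind PER and CRY proteins were read from 2 lists. Of 10 genes of kinases, ligases and related enzymes of PER and CRY, 0 passed in either tissue, with the lowest p for Usp2 (0.50, peak ZT11.2, adjusted p = 0.248) in nodose and Btrc (0.07, peak ZT18.5, adjusted p = 0.0985) in arcuate. Of all genes only 1.33% passed in nodose and 3.86% in arcuate, so 0 of 10 says little of these enzyme genes. Their median amplitude was 0.05 in nodose and 0.04 in arcuate, below that of all genes. Of the protein partners of the repressor complex, 1 of 6 passed in arcuate, Sfpq (0.12, peak ZT16.03, adjusted p = 0.00622), and 0 of 6 in nodose, where Dhx9 (0.09, peak ZT11.97, adjusted p = 0.559) had the lowest p. Signals known to induce Per1 were read from 2 more lists. Of the glucocorticoid-induced genes 1 of 7 passed in nodose, Sgk1 (0.40, peak ZT7.06, adjusted p = 0.0250), close to the Per1 peak there, and 0 of 7 in arcuate, where Mt1 (0.18, peak ZT9.38, adjusted p = 0.0516) had the lowest p. The rest of that list did not pass in nodose and mostly peaked far from Per1. Fitted nodose peaks were ZT5.89 for Errfi1, ZT13.2 for Tsc22d3, ZT14.5 for Mt2, ZT15.0 for Mt1, ZT17.2 for Fkbp5 and ZT17.5 for Zbtb16. Of the CREB and immediate early genes 1 of 7 passed in arcuate, Egr1 (0.31, peak ZT4.74, adjusted p = 0.00367), and 0 of 7 in nodose, where Nr4a1 (0.39, peak ZT7.00, adjusted p = 0.104) had the lowest p.

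**Figure D5:**
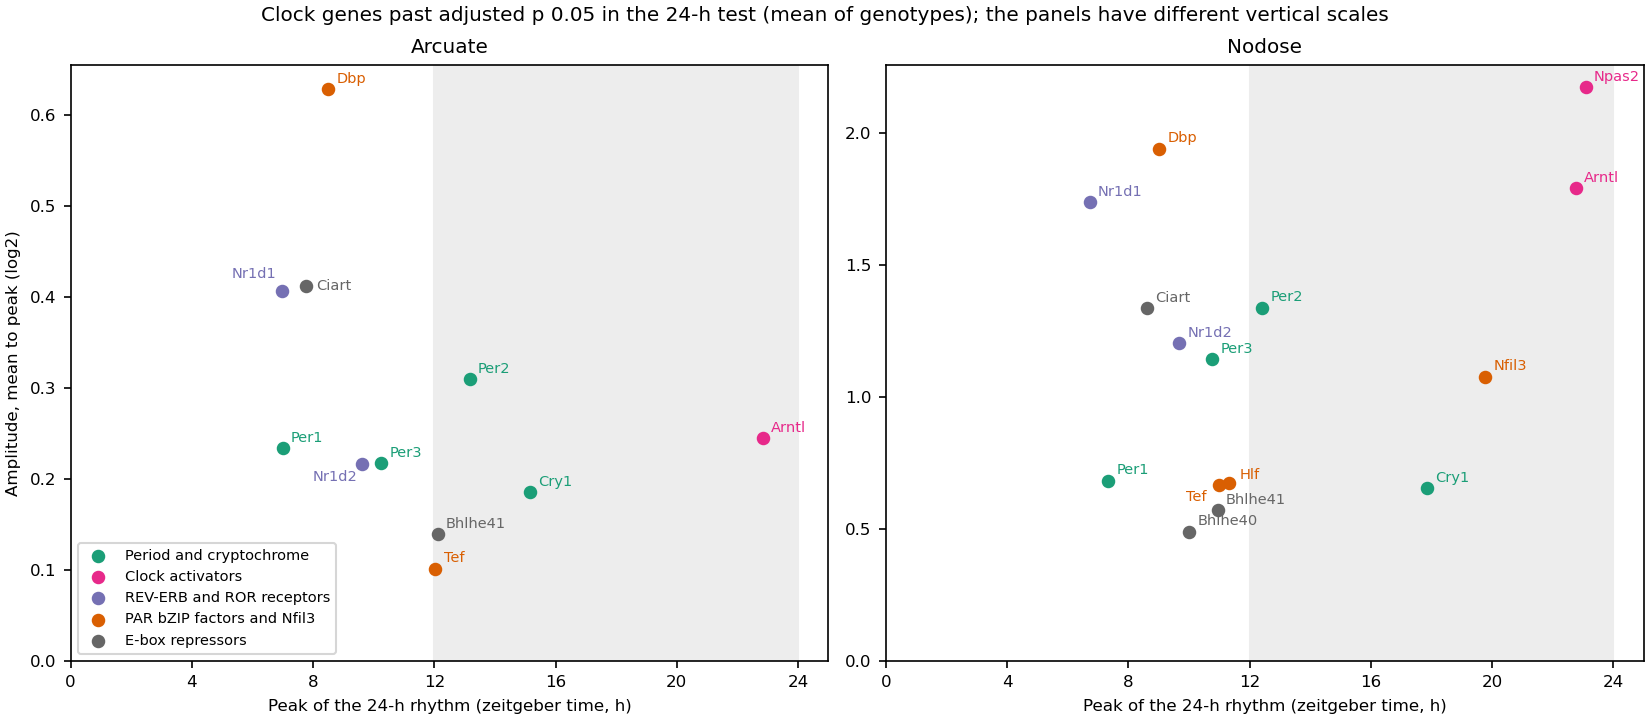
Amplitude (mean to peak, log2) against peak time (zeitgeber time, h) of the clock genes past an adjusted p of 0.05 in the 24-h test averaged over genotypes, coloured by list, in arcuate (left) and nodose (right), with different vertical scales and the dark phase in grey. Nr1d1, Per1, Ciart and Dbp peak in the light phase in both tissues, before Per3 and Per2, and Cry1 and Arntl lie in the dark, Arntl at ZT22.8 in arcuate and ZT22.7 in nodose.

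For each gene the 3 most similar patterns were taken, by Pearson's r of log2 CPM over the 24 libraries of a tissue, which share time, pool and depth. They are the top of 14862 genes compared in nodose and 16097 in arcuate. In nodose Per3 was closest to Hlf (r = 0.954), Tef (0.916) and Nr1d2 (0.910). Per2 was closest to Hlf (r = 0.874), Tef (0.866) and Wee1 (0.860). Both sets are led by the D-box factors Hlf and Tef. Per1 was closest to Sgk1 (r = 0.906), Arrdc2 (0.846) and Pim3 (0.819), the first of which is on the glucocorticoid list. Cry1 was closest to Pnpla3 (r = 0.805), Aldh3b2 (0.726) and Nfil3 (0.726), of which Nfil3 is the D-box repressor. Cry2 was closest to Fam76a (r = 0.762), Pdxk (0.757) and Cys1 (0.744). In arcuate Per1 was closest to Hmgb2 (r = 0.816), Bdh1 (0.797) and Tns2 (0.791), Per3 to Inmt (r = 0.863), Arf4 (0.740) and Psmc2 (0.740) and Per2 to Nfe2l2 (r = 0.774), Kirrel2 (0.772) and Ifit3 (0.771). Arcuate Cry1 was closest to Mxi1 (r = 0.799), Zadh2 (0.771) and Gabra6 (0.771), and Cry2 to Slc25a16 (r = 0.845), Nploc4 (0.763) and Acsl5 (0.747). None of the arcuate neighbours is on a clock list used here. Among themselves the strongest tie was Per2 with Per3 in nodose (r = 0.857), where Per1 and Cry1 ran against each other (r = -0.585). In arcuate the values for these pairs were 0.586 and -0.355.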

How the data were processed

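Per the submitters' processing notes, reads were checked with FastQC 0.11.7, trimmed with Trim Galore 0.6.10 and aligned with STAR 2.7.10b to mm10. The counter, its annotation and its strand setting are not given in the sources used here. The authors deposited 1 table of raw counts per gene symbol (25229 symbols, whole numbers) with a column for each of the 48 libraries. Arcuate libraries were made and sequenced by Novogene and nodose libraries from 500 ng of RNA with a KAPA kit that removes ribosomal RNA, per the labels' protocols.

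Groups came from the labels. No pair of replicates repeated another (smallest chi-square per degree of freedom 2.89 in arcuate and 8.12 in nodose, over genes with at least 20 counts). Separate models for arcuate and nodose were fitted in R 4.3.3 with edgeR 4.0.16 and limma 3.58.1, after filterByExpr on groups and TMM scaling, as robust quasi-likelihood fits with 8 group means. Rhythm was tested on the contrasts of ZT4 with ZT16 and of ZT10 with ZT22 together, and the 12-h component was tested with 1 contrast. Differences between tissues in rhythm and genotype effect were F tests on the separate fits with their own spread, and levels came from 1 fit of all libraries. All 17 tests were adjusted over all genes tested (Benjamini-Hochberg, threshold 0.05). Plots were drawn with matplotlib 3.10.9 in Python 3.11.15. The scripts were tested on simulated data. Peak intervals use the fitted standard errors (delta method).

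The members and gene lists were chosen with earlier results of these data known. Named genes were the 5 members, the gene with the lowest p of each list per tissue, and the 3 nearest patterns of each member. Markers that bear on a label or passed the rhythm test, other list genes that passed, and glucocorticoid-induced genes were also named. Alternatives were DESeq2 1.42.0, other scalings, no filter, thinned arcuate counts, fits of 1 genotype, covariates, a replicate block, left-out libraries and, added after the values were seen, nodose libraries numbered 1 and 2 only, arcuate marker covariates and single times without each library. Intervals cover counting and replicate error in these pools.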

Additional observations from a re-analysis of the deposited data

Results flagged for a closer look

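The rhythms of 3 genes differed between arcuate and nodose libraries in the F test on edgeR's fits. The difference was 1.04 log2 for Per2 (Benjamini-Hochberg adjusted p = 0.00398), with amplitudes of 0.31 in arcuate and 1.34 in nodose. For Per3 it was 0.93 (adjusted p = 8.83e-05), with 0.22 and 1.14. For Cry1 it was 0.53 (adjusted p = 0.00172), with 0.19 and 0.65, and here the peak was later in nodose as well. Tissue, preparation and depth cannot be told apart, and all 3 stayed past the threshold in each of the 48 fits that left out 1 library.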

How the results depend on the processing

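In these pools the 4 rhythms averaged over genotypes kept direction and call in both tissues under every alternative except the leave-one-out fits of arcuate Cry1, which lost it in 3 of 24. Of 715 values of the 5 genes under alternatives other than leaving out 1 library, 691 kept direction and side of the threshold. The others were 1 that passed (Per1 in the tissue difference of rhythm with 1 fit over both tissues, 0.45, adjusted p = 0.0447), 11 that no longer did and 12 that changed sign, none of which passed the test. Of 286 counts 258 stayed within 1.5 times. The cause was not tested unless the alternative's construction gives it.

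DESeq2 called more genes: 108 in arcuate Control, 380 in arcuate HepDKO, 1117 averaged over genotypes, 20 for the 12-h component, 1 for the rhythm difference, 23 for genotype and 9 at any time, and in nodose 135 in Control, 73 in HepDKO, 383 averaged, 7 for the 12-h component, 3 for genotype and 2 at any time. Thinning arcuate counts to nodose totals left fewer reads and 16 genes in Control with 0 of the 5 (Per2 0.24, adjusted p = 0.0938), 39 in HepDKO and 259 averaged. Fits of 1 genotype, with fewer libraries, called 37 in arcuate HepDKO (Per3 adjusted p = 0.0883) and 12 in nodose Control, with 1 of the 5. Library totals alone called 1 gene for genotype in arcuate. Covariates gave 56 genes in nodose Control and 41 in HepDKO, 1 fit over both tissues gave 169 for the rhythm difference, and without a filter nodose Control Per2 had an adjusted p of 0.0630. Nodose libraries numbered 1 and 2 only gave 570 in Control, 549 averaged, 501 for the tissue difference and 2 of the 5 in HepDKO (Per1 adjusted p = 0.350, Cry1 0.114).

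Sign changes were small. They were Cry1 0.0055 and Cry2 0.0376 in the arcuate rhythm difference when thinned, arcuate genotype differences of 0.0080 (Per1, totals), 0.0060 (Per1, without the Xist libraries) and -0.0012 (Per2, thinned) or -0.0010 (Per2, with the neighbouring nuclei as covariates), 0.0053 for Cry1 in the arcuate 12-h component (same covariates), and -0.0106 for Cry1 in the tissue comparison of genotype effects (totals). In nodose they were 0.0025 (Cry1, without the Xist libraries) and 0.0061 (Cry1, numbered 1 and 2) for genotype, and -0.0988 (Per2) and -0.0023 (Per3) for the 12-h component (numbered 1 and 2).

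Leaving out 1 library gave 11 to 117 genes in arcuate Control (1 to 2 of the 5), 31 to 312 in arcuate HepDKO, 287 to 1031 averaged, 2 to 10 for the 12-h component and 0 to 7 for genotype. In nodose it gave 15 to 71 in Control (1 to 4 of the 5), 129 to 276 averaged, 0 to 1 for the 12-h component and 0 to 1 for genotype. The tissue comparisons gave 64 to 158 for rhythm and 0 to 1 for genotype. The arcuate Control extremes came without Control ZT4 replicate 3 and HepDKO ZT4 replicate 3 (without which Per3 passed in Control, adjusted p = 0.0244), the arcuate HepDKO and averaged extremes without HepDKO ZT16 replicate 2 (lowest) and HepDKO ZT4 replicate 2 (highest), and the nodose averaged extremes without HepDKO ZT16 replicate 3 and HepDKO ZT22 replicate 3. The nodose Control extremes came without Control ZT10 replicate 2 and HepDKO ZT22 replicate 3, and the lowest tissue difference without nodose HepDKO ZT16 replicate 3. For tissue levels these fits kept the genes and the dispersion trend of the full fit. Values that crossed 0 ranged, for arcuate genotype, from -0.0366 to 0.0302 (Per1), -0.0141 to 0.0222 (Per2), -0.0070 to 0.0541 (Per3) and -0.0081 to 0.0248 (Cry2). For nodose genotype they ranged from -0.177 to 0.0477 (Per3), -0.0728 to 0.0298 (Cry1) and -0.160 to 0.00042 (Cry2), and for the tissue difference in genotype from -0.205 to 0.0200 (Per3) and -0.0321 to 0.0705 (Cry1). The 12-h component ranged from -0.0174 to 0.0115 (arcuate Cry1) and -0.0557 to 0.127 (nodose Per2), and the arcuate rhythm difference of Cry1, which turned in direction, from 0.0060 to 0.102.

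The labels give no shared animal, batch or day for a replicate number, and the numbers did not meet the rule used for pairing, a correlation of deviations over 0.1 in every pair of same-numbered libraries. The correlation ran from -0.128 to 0.163 in arcuate (median 0.0245, 9 of 84 pairs over 0.1) and from -0.434 to 0.364 in nodose (median 0.00284, 23 of 84). The best match in another group had the same number for 14 of 24 arcuate and 10 of 24 nodose libraries, a hint from the data and not from the design, so shared deviations of some same-numbered libraries, such as those numbered 3, are not excluded. With the replicate block, 41 genes passed in arcuate Control, 83 in HepDKO and 677 averaged, in nodose 31, 23 and 190, and 116 for the tissue difference in rhythm, and no call of the 5 genes changed.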
